A study of Peromyscus polionotus with 11 samples.

Results

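The protein kinase C family was followed over 6 genes, Prkca, Prkcb, Prkcd, Prkce, Prkcq and Prkcz, of 12393 genes named on the arrays. They are read by 10 of the 22626 probe sets tested. The genes were picked by name, with earlier results of these data known: Prkcd and Prkcb had already been seen to differ between the brain nuclei, so differences between the nuclei are described here without a test. Every probe set whose only annotated gene symbol is one of these names was kept. Prkca, Prkcb, Prkce and Prkcz have 2 probe sets each, and Prkcd and Prkcq have 1 each.

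The samples were micropunches, small cores cut from brain slices, of the oldfield mouse (Peromyscus polionotus), a deer mouse of North America. The groups were the bed nucleus of the stria terminalis in short days (2 samples, numbered 4 and 5) and in long days (3 samples, 1 to 3), and the medial preoptic area in short days (3 samples, 4 to 6) and in long days (3 samples, 1 to 3). The series' design text calls the samples independent, and the labels give no genotype, age or sex and no other treatment than day length. They do not say whether a punch held tissue of 1 animal or several, so p-values measure the spread between these samples, which may be technical in part. The study asked how day length acts on gene expression in these nuclei, which are tied to social, sexual and defensive behaviour.

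Protein kinase C enzymes are serine and threonine kinases that act downstream of receptors coupled to the G protein Gq. Such receptors switch on phospholipase C, which splits a membrane lipid into inositol trisphosphate, a releaser of calcium, and diacylglycerol. The conventional isoforms, alpha and beta, need both calcium and diacylglycerol. Delta, epsilon and theta respond to diacylglycerol without calcium, and the atypical isoform zeta responds to neither. In the brain these kinases adjust transmitter release, receptors and the cytoskeleton, and in the house mouse Prkcd marks neurons of the lateral bed nucleus and central amygdala and is also strongly expressed in the thalamus.

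Values are array intensities on a linear scale, on which every array has a median of 19. The probes were designed for the house mouse, so sequence differences lower the signal by an unknown amount that can differ from probe set to probe set, and levels are compared between arrays for 1 probe set at a time. Log2 differences come from a linear model over all 11 arrays, with the standard error (SE) of the model. In a micropunch, fewer cells of a type and less RNA per cell cannot be told apart. The labelled regions could be checked against marker genes. Of 8 markers of neurons in general, 7 exceeded 19 on all 11 arrays, and Eno2 (11 to 23) did so on 2. Their summed intensities, to which Snap25 and Nefl contributed most, were 1765 to 1870 on short-day and 1829 to 2030 on long-day bed nucleus arrays, and of 1993 to 2124 on short-day and 1963 to 2205 on long-day preoptic arrays. Hypothalamic and preoptic markers summed, over 17 genes, to 3201 to 3784 in the bed nucleus and 3941 to 5075 in the preoptic area. This separation rested on Ndn, and without it the sums overlapped, at 1170 to 1549 and 1305 to 1700, although 13 of the 17 genes were lower in the bed nucleus and 4 higher. A list of markers of the extended amygdala, to which the bed nucleus belongs, summed over 7 genes to 608 to 910 and 397 to 775, so these ranges overlapped too. Sst, encoding somatostatin, belongs to both of these lists and contributed most to the extended amygdala sums, at 261 to 714.

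Some arrays stood apart in markers of neighbouring tissue or on the first principal component. The long-day bed nucleus arrays 2 and 3 had summed intensities of 3209 and 2247 over 14 thalamic neuron markers, against 1114 to 1669 on the other 9 arrays. Of these markers, 9 exceeded 19 on all 6 preoptic arrays as well. Over 10 striatal neuron markers, the short-day preoptic array 6 had the lowest sum, 1697, close to that of array 4, 1751. The long-day preoptic array 1 had the highest preoptic sum, 3056. The short-day preoptic array 6 lay furthest out on the first principal component, at -31.2. On its other side lay the long-day bed nucleus arrays 1 and 2, at 25.4 and 19.3. That bed nucleus array 1 also read highest of all arrays for striatal markers such as Rasd2 (151) and Rgs9 (144), though not for Foxp1 or Rarb. For Prkcb and Prkcd, values without some of these arrays are given beside the results.

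Of the conventional isoforms, Prkcb, protein kinase C beta, lay far above the array median for both of its probe sets and had a higher signal in the bed nucleus. Probe set 1423478_at read 836 and 760 on the short-day bed nucleus arrays and 1041, 777 and 688 on the long-day ones. It read 371, 429 and 285 on the short-day preoptic arrays and 661, 444 and 418 on the long-day ones. All 5 bed nucleus arrays lay above all 6 preoptic arrays. The bed nucleus minus preoptic difference was 1.16 ± 0.21 (SE) on the log2 scale in short days and 0.73 ± 0.19 in long days, with a mean of 0.94 ± 0.14. Without the short-day preoptic array 6 the mean was 0.86, and leaving out each array in turn gave 0.86 to 1.05.

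The further Prkcb probe set, 1460419_a_at, gave a like picture, with a mean nucleus difference of 0.97 ± 0.16. It read 301 and 286 in the short-day and 323, 288 and 205 in the long-day bed nucleus. In the preoptic area it read 134, 163 and 89 in short days and 211, 166 and 127 in long days. The nuclei overlapped at a single pair of arrays, the long-day bed nucleus array 3 at 205 and the long-day preoptic array 1 at 211. The Pearson correlation of the log2 values of both probe sets over the 11 arrays was 0.97.

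Prkca, protein kinase C alpha, was dim. Its probe sets never exceeded 19, with 13 to 18 in the bed nucleus and 11 to 18 in the preoptic area for 1427562_a_at, and 10 to 11 and 10 to 13 for 1450945_at. All neighbouring groups overlapped in level. The mean nucleus differences were -0.01 ± 0.12 and -0.06 ± 0.10, and a step of 1 intensity unit at these levels is worth 0.10 to 0.12 on the log2 scale.

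Among the isoforms that respond to diacylglycerol without calcium, Prkcd, protein kinase C delta, was higher in the bed nucleus and varied most between arrays there. It read 37 and 25 on the short-day bed nucleus arrays and 38, 74 and 64 on the long-day ones. It read 18, 16 and 24 on the short-day preoptic arrays and 21, 23 and 22 on the long-day ones. The order of the group means was long-day bed nucleus (58.7 ± 18.6, SD, n = 3), short-day bed nucleus (31.0 ± 8.49, n = 2), long-day preoptic area (22.0 ± 1.0, n = 3) and short-day preoptic area (19.3 ± 4.16, n = 3). Only the preoptic neighbours in this order overlapped, although the bed nucleus groups were separated by 1 intensity unit, between the short-day array 4 at 37 and the long-day array 1 at 38.

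The nucleus difference of Prkcd was 0.68 ± 0.23 on the log2 scale in short days and 1.36 ± 0.20 in long days, with a mean of 1.02 ± 0.15. Without the long-day bed nucleus arrays 2 and 3 the mean difference was 0.73, and the 3 remaining bed nucleus arrays (25 to 38) still lay above the 6 preoptic arrays (16 to 24). Prkcd and the Prkcb probe set 1423478_at were the only members with all bed nucleus arrays above all preoptic arrays, a pattern found in 0.703% of all probe sets. No member had the opposite pattern, which 0.769% of all probe sets showed. These counts belong to the contrast on which the genes were noticed and are given as a description.

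Prkce, protein kinase C epsilon, lay at the array median. Probe set 1449956_at read 20 and 22 in the short-day and 19, 25 and 22 in the long-day bed nucleus, and 23, 15 and 18 in the short-day and 16, 16 and 19 in the long-day preoptic area. Its mean nucleus difference was 0.28 ± 0.12. Probe set 1452878_at read 19 to 24 in the bed nucleus and 18 to 24 in the preoptic area, with a mean difference of 0.03 ± 0.10. The Pearson correlation of the Prkce probe sets over the 11 arrays was -0.28, so these 2 readings of 1 gene, both near the array median, did not move together. Prkcq, protein kinase C theta, a kinase best known from T cell signalling, read 38 and 41 in the short-day and 39, 37 and 32 in the long-day bed nucleus, and 35, 37 and 48 in the short-day and 37, 38 and 36 in the long-day preoptic area. Its mean nucleus difference was -0.02 ± 0.10 and all neighbouring groups overlapped. Of 6 T cell markers, 2 never exceeded 19. Their sum was 120 to 131 in the bed nucleus and 111 to 124 in the preoptic area.

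The atypical isoform Prkcz, protein kinase C zeta, a partner of the Par polarity proteins and, as a brain transcript, the source of protein kinase M zeta, was highest in the long-day bed nucleus for probe set 1418085_at. That probe set read 49 and 43 in the short-day bed nucleus and 62, 63 and 54 in the long-day one. In the preoptic area it read 52, 51 and 44 in short days and 39, 52 and 46 in long days. The long-day bed nucleus lay above the other 3 groups, which overlapped with each other. The nucleus difference was -0.09 ± 0.15 in short days and 0.39 ± 0.14 in long days. The further probe set, 1449692_at, read 42 and 33 in the short-day and 48, 44 and 48 in the long-day bed nucleus, and 37, 40 and 50 in the short-day and 35, 58 and 45 in the long-day preoptic area. Its nucleus differences were -0.17 ± 0.19 and 0.05 ± 0.17 in short and long days.

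**Figure D1:**
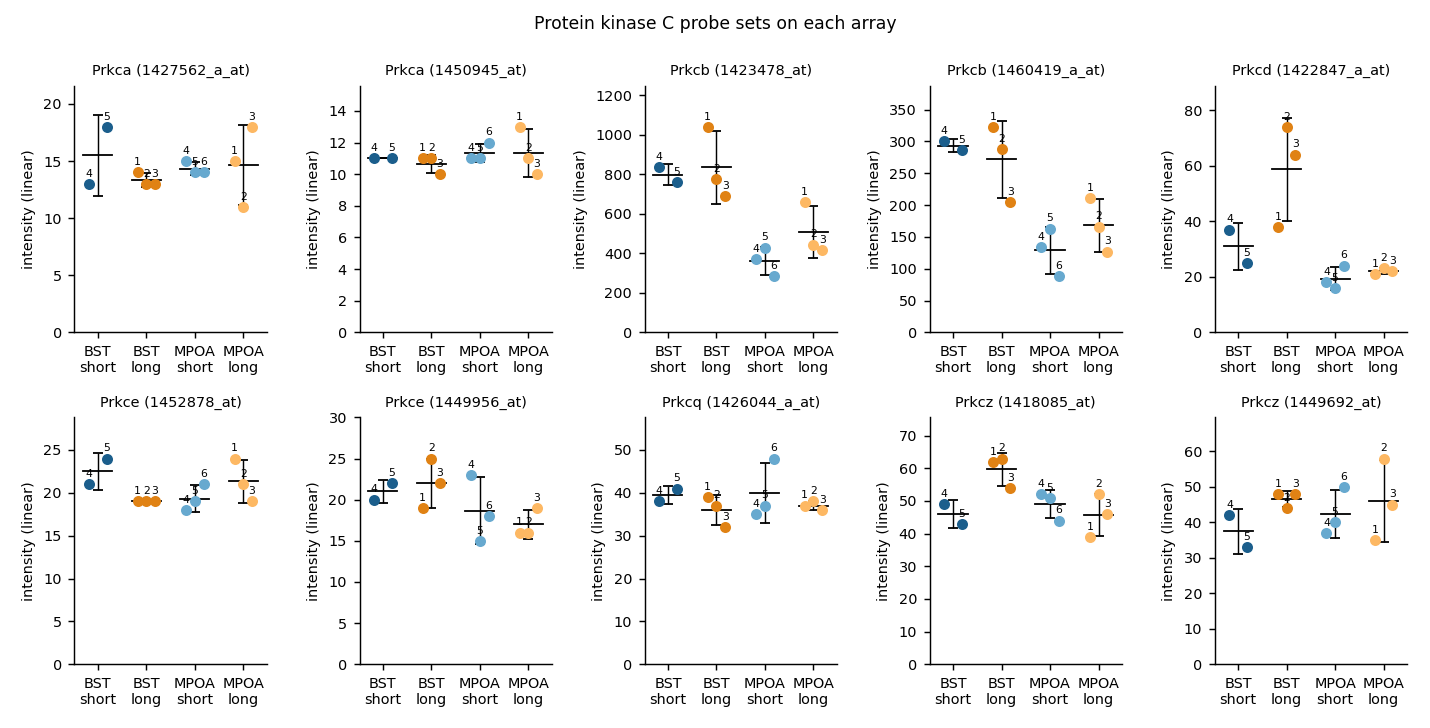
Intensity (linear scale, axis from 0) of the 10 protein kinase C probe sets on each array, by group. Points are arrays with their sample numbers, horizontal lines group means and bars SD (n = 2 for the short-day bed nucleus, BST, and n = 3 for each other group; MPOA is the medial preoptic area). Prkcb reads highest in both bed nucleus groups, Prkcd reads 74 and 64 on long-day bed nucleus arrays 2 and 3, and Prkca stays at 18 or less.

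Over the 10 probe sets, 6 were higher and 4 lower in the bed nucleus, with a median log2 difference of 0.09, while the median over all probe sets was 0.00. The differences ran from -0.06 to 1.02, and Prkcb and Prkcd made up the 3 highest values, followed by 0.28 for Prkce. The other measured kinases of the superfamily had 5 of 5 genes higher in the bed nucleus, against 6331 of all 12393 named genes. Their median was 0.19, and in long days 4 of 5 were higher. Their largest difference was that of Prkd1, protein kinase D1, which is itself switched on by protein kinase C, at 0.35 (64 and 63 in the short-day and 66, 64 and 70 in the long-day bed nucleus, against 45, 60 and 49 in the short-day and 52, 49 and 53 in the long-day preoptic area). Prkci, the atypical isoform iota, was at 0.29, and Prkch, isoform eta, which never exceeded 16, was at 0.19. Prkd2 and Prkd3 were at only 0.06 and 0.01. These values are those of the brightest probe set of each gene. A further, dimmer Prkci probe set lay on the other side of 0, at -0.23. It read 10 to 12 in the bed nucleus and 10 to 21 in the preoptic area, with 21 on the short-day array 6.

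**Figure D2:**
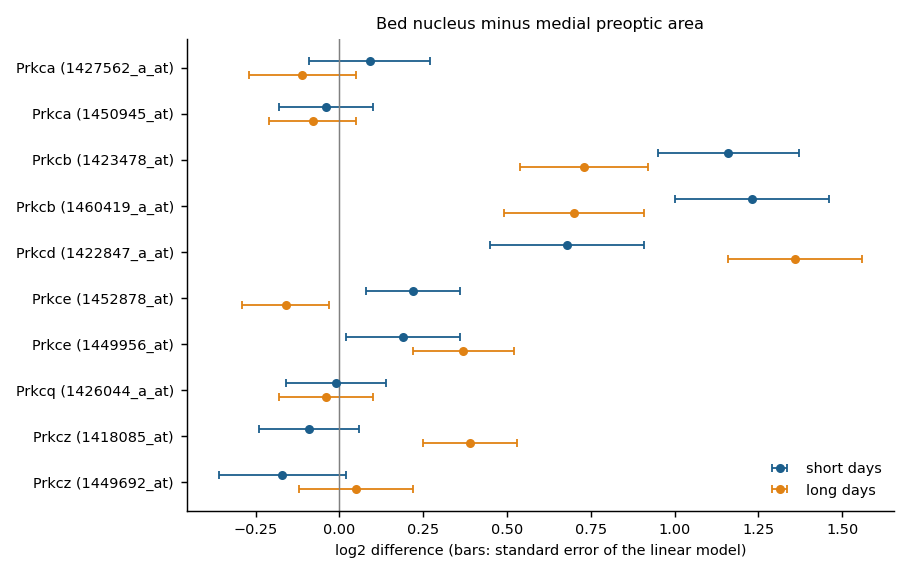
Difference between the bed nucleus and the medial preoptic area on the log2 scale for each probe set, in short days and in long days, with the standard error of the linear model as bars. Prkcb lies at 0.70 to 1.23 and Prkcd at 0.68 and 1.36, and the other 7 probe sets lie between -0.17 and 0.39.

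The level of Prkcb followed that of striatal neuron markers from array to array. The log2 level of probe set 1423478_at had a Pearson correlation of 0.98 with the mean of 10 striatal markers over the 11 arrays, and of 0.98 over the 6 preoptic arrays alone. For 1460419_a_at these values were 0.95 and 0.91. Without the short-day preoptic array 6 the values over the remaining 10 arrays were 0.97 (1423478_at) and 0.93 (1460419_a_at). The arrays share their nucleus and their normalization, and Prkcb is itself a gene of striatal neurons in the house mouse. The striatal markers summed to 3785 and 3977 on the short-day and 3832, 3760 and 3142 on the long-day bed nucleus arrays. In the preoptic area they summed to 1751, 2289 and 1697 in short days and 3056, 2396 and 2183 in long days. Foxp1 contributed most to these sums, at 2697 to 3422 in the bed nucleus and 1428 to 2615 in the preoptic area. All 10 striatal markers were higher in the bed nucleus, with a median log2 difference of 0.59. The part of striatal tissue in the Prkcb difference was not tested.

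By the measure of likeness used, the Pearson correlation over the 11 arrays, the genes closest to Prkcb were Arpp19, encoding a phosphoprotein that inhibits protein phosphatase 2A (0.98), Kalrn, a guanine exchange factor of dendritic spines (0.98), Erf, a transcriptional repressor (0.97), and Mef2c, a transcription factor of neurons (0.97). All 4 were higher in the bed nucleus, at 1.58, 1.18, 1.05 and 0.74. They were chosen by their correlation with Prkcb, which itself differs between the nuclei, so the shared direction follows largely from the choice. Mef2c, for example, read 88 and 75 in the short-day and 92, 71 and 56 in the long-day bed nucleus, and 43, 48 and 35 in the short-day and 63, 48 and 42 in the long-day preoptic area.

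In the bed nucleus, the arrays with the highest Prkcd were also those with the highest sums of thalamic markers. Ntng1, a netrin-like adhesion protein of thalamic axons, read 176 and 176 on the short-day bed nucleus arrays and 181, 778 and 580 on the long-day ones. Tcf7l2, a transcription factor of thalamic neurons, read 42 and 36 in short days and 48, 141 and 91 in long days. Slc17a6, the vesicular glutamate transporter VGLUT2, read 29 and 18 in short days and 11, 136 and 63 in long days. In these markers as in Prkcd, arrays 2 and 3 of the long-day group read highest of the 5 bed nucleus arrays. Other thalamic markers did not share this, such as Calb2, with 40 and 51 in short days and 27, 42 and 46 in long days.

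Of the 14 thalamic markers, 4 (Adarb1, Zic1, Ntng1 and Tcf7l2) read higher on these arrays than on all other 9, a pattern shared by Prkcd and found in 1.77% of all probe sets. Arrays 2 and 3 were singled out by the sums of these same 14 markers, so the count of 4 is a description only. The pattern was found in 0 of the 10 striatal, 6 oligodendrocyte, 6 astrocyte and 7 microglial markers, and in 1 of 6 ependymal and choroid plexus markers (Folr1). Among the pathway genes it was found in 2 of 23 Gq-coupled receptors (Trhr2 and Cckbr), 1 of 14 scaffold proteins (Pard6b) and 1 of 17 substrates (Nsf). Among the thalamic markers 3 never exceeded 19. Over all 11 arrays the Pearson correlation of Prkcd was 0.44 with the mean of the 14 thalamic markers and 0.50 with the striatal mean. With only 5 arrays, no correlation is given within the bed nucleus. There the Prkce probe set 1449956_at read 25 and 22 on arrays 2 and 3, against 19 to 22 on the other 3 arrays. In the preoptic area Prkcd read 16 to 24 and Slc17a6 48 to 88. The part of thalamic tissue in the Prkcd values was not tested.

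The genes closest to Prkcd over the 11 arrays were Vim, the intermediate filament vimentin of glia, ependyma and vessels (0.95), Kcnn2, a calcium-activated potassium channel (0.91), Thbs4, a secreted thrombospondin (0.90), and Zbtb18, a transcriptional repressor of neurons (0.89). Vim read 71 and 66 in the short-day and 128, 164 and 169 in the long-day bed nucleus, and 44, 45 and 75 in the short-day and 45, 59 and 53 in the long-day preoptic area. For Prkcz (1418085_at) the closest gene was Mobp, a myelin protein of oligodendrocytes (0.93), with 26 and 21 in the short-day and 44, 46 and 29 in the long-day bed nucleus. Its short minus long day difference there was -0.73, and its further probe sets were at 0.11 and 0.03. Of 6 oligodendrocyte markers, 3 were higher and 3 lower in short days in the bed nucleus, with a median of 0.00. For Prkca, Prkce and Prkcq the highest correlations were 0.91 with Slc2a3, a neuronal glucose transporter, 0.92 with Hdgfl3 and 0.95 with Cyp2c70. They belong to the probe sets 1427562_a_at, 1452878_at and 1426044_a_at. The residual SD of these members on the log2 scale was 0.23, 0.12 and 0.16. Prkcq and Cyp2c70 read highest on the short-day preoptic array 6, at 48 and 32. Prkca and Slc2a3 read highest on the short-day bed nucleus array 5 (18 and 146) and the long-day preoptic array 3 (18 and 143).

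**Figure D3:**
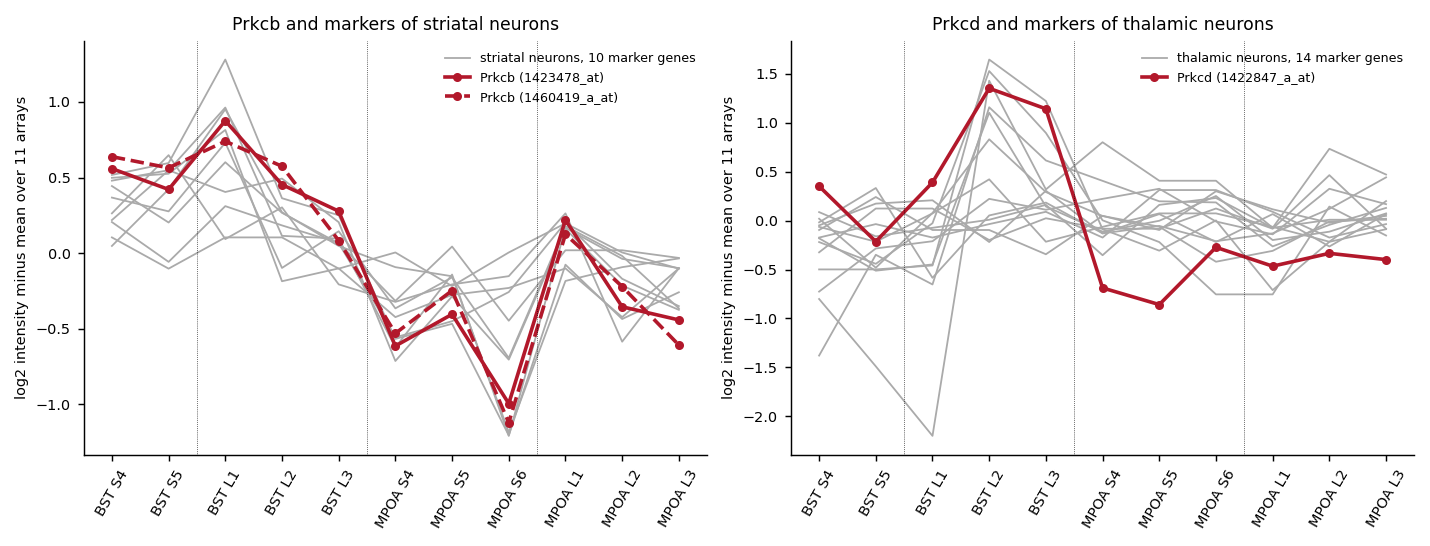
Log2 intensity minus its mean over the 11 arrays, for Prkcb with 10 striatal neuron markers (left) and for Prkcd with 14 thalamic neuron markers (right). Each grey line is a marker gene, red lines are the kinase probe sets, S and L stand for short and long days with the sample number, and dotted lines part the groups. Prkcb is lowest on the short-day preoptic array 6, and Prkcd is highest on the long-day bed nucleus arrays 2 and 3.

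Day length was compared next. No member passed at an adjusted p of 0.05 in limma, over all probe sets, in either nucleus, in their mean or in the difference between the nuclei. In all, 0.0442% of probe sets passed in the bed nucleus, 0% in the preoptic area, 0.0133% in the mean and 0% in the difference. At an unadjusted p under 0.05, 2 of 10 member probe sets were found in the bed nucleus against 12.7% of all probe sets, 1 of 10 in the preoptic area against 3.50%, 1 of 10 in the mean against 9.02%, and 2 of 10 in the difference against 8.34%. They were Prkcd and Prkcz (1418085_at) in the bed nucleus and in the difference, Prkcb (1423478_at) in the preoptic area and Prkcd in the mean. With 10 probe sets of 6 genes, these counts are near the shares of all probe sets.

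In the bed nucleus, Prkcd was lower in short days than in long days by 0.89 ± 0.23 on the log2 scale. This did not pass (adjusted p = 0.115, limma, 95% interval -1.37 to -0.41), and the groups, with 37 and 25 in short and 38, 74 and 64 in long days, were 1 intensity unit apart. Without the long-day array 1 the difference was -1.18 and passed (adjusted p = 0.0361, limma). Long-day arrays 2 and 3 were those with the high thalamic markers. Without them, with array 1 alone left for long days, the difference was -0.32. Beside it, 12 of 14 thalamic markers were lower in short days, with a median of -0.39, none passing, where the median over all named genes was -0.03. Of the markers of ependyma and choroid plexus, 5 of 6 had lower means in short days, with a median of -0.33 and sums of 147 and 150 in short days and 171 to 204 in long days.

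Prkcz was lower in short days in the bed nucleus by 0.37 ± 0.15 (1418085_at, adjusted p = 0.312, limma) and 0.32 ± 0.19 (1449692_at, adjusted p = 0.483, limma), and neither probe set passed. Their short-day arrays lay below all long-day arrays, as did those of Prkcd, so that 3 of 10 member probe sets had this pattern, against 13.5% of all probe sets. For both Prkcz probe sets it was the short-day array 5 that read lowest, and without it the differences were -0.28 (1418085_at) and -0.15 (1449692_at). One probe set of Prkce (1452878_at), with 21 and 24 in short days and 19 on each long-day array, had its short-day arrays above the long-day ones, against 10.2% of all probe sets, at 0.24 ± 0.14 (adjusted p = 0.504, limma). The further Prkce probe set was at -0.06.

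The other members gave values near 0 in the bed nucleus. Prkcb was at -0.05 ± 0.21 and 0.14 ± 0.23, with 95% intervals of -0.48 to 0.39 and -0.35 to 0.62. Without the long-day arrays 2 and 3, with array 1 alone left for long days, the Prkcb values were -0.39 and -0.14. Prkca was at 0.20 and 0.05, and Prkcq at 0.14 ± 0.15. Over the 10 probe sets, 5 were higher and 5 lower in short days, with a median of 0.00, and over all probe sets the median was -0.01.

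In the preoptic area, Prkcb was lower in short days by 0.48 ± 0.19 (1423478_at, adjusted p = 1, limma, 95% interval -0.87 to -0.09) and by 0.40 ± 0.21 (1460419_a_at, adjusted p = 1, limma), and neither probe set passed. The groups overlapped, with 371, 429 and 285 in short days and 661, 444 and 418 in long days for 1423478_at. The lowest value belonged to the short-day array 6 and the highest to the long-day array 1. Without array 6 the difference was -0.32, and without array 1 it was -0.27. For 1460419_a_at these values were -0.15 and -0.22. Beside Prkcb, 10 of 10 striatal markers were lower in short days in the preoptic area, with a median of -0.33, none passing. Of all 12393 named genes 6266 were lower there, with a median of 0.00. The markers are read on the same arrays, so they are not separate observations. Their sums were 1697 to 2289 in short days and 2183 to 3056 in long days. No member had its short-day preoptic arrays all above or all below the long-day ones, patterns found in 2.64% and 2.55% of all probe sets.

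Prkcd was at -0.21 ± 0.20 in the preoptic area, and at -0.37 without the short-day array 6, with neither value passing. With all arrays kept, Prkcz was at 0.11 ± 0.14 and -0.10 ± 0.17, Prkce at -0.14 ± 0.13 and 0.12 ± 0.15, Prkcq at 0.10 ± 0.14, and Prkca at 0.00 and 0.01. Of the 10 probe sets, 4 were higher and 6 lower in short days, with a median of -0.05 and with 0.00 over all probe sets. In the mean of both nuclei the value furthest from 0 was that of Prkcd, at -0.55 ± 0.15 (adjusted p = 0.369, limma).

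An interaction term tested whether short days acted differently in the bed nucleus and the preoptic area. Prkcd was at -0.69 ± 0.31 (adjusted p = 0.582, limma) and Prkcz (1418085_at) at -0.48 ± 0.21 (adjusted p = 0.565, limma), that is, further below 0 in the bed nucleus. The Prkcb probe sets were at 0.43 ± 0.28 (1423478_at) and 0.53 ± 0.31 (1460419_a_at), on the other side of 0. None passed. Without the short-day preoptic array 6 the Prkcb values were 0.27 and 0.29. With array 1 as the only long-day bed nucleus array, that is, without arrays 2 and 3, they were 0.09 and 0.26. Without the long-day preoptic array 1 they were 0.23 and 0.35. Without the bed nucleus arrays 2 and 3 the Prkcd value was -0.11 and that of Prkcz -0.54, and without the short-day preoptic array 6 the Prkcd value was -0.52.

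**Figure D4:**
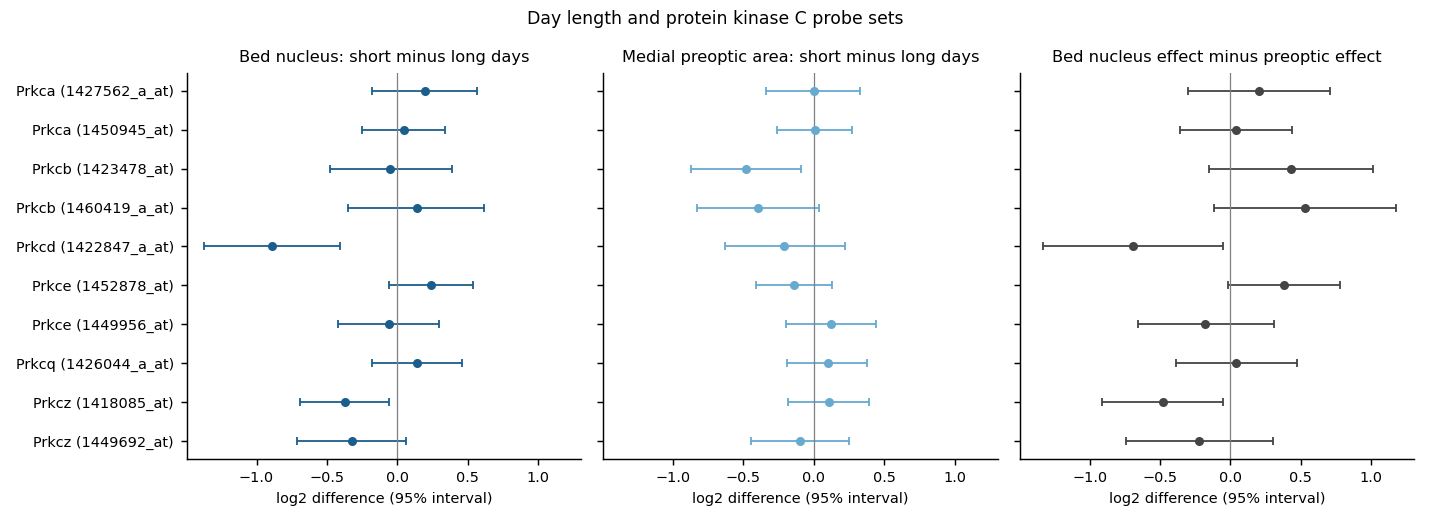
Log2 differences with their 95% intervals for the 10 probe sets: short minus long days in the bed nucleus (left) and in the medial preoptic area (middle), and the bed nucleus effect minus the preoptic effect (right). Prkcd in the bed nucleus, at -0.89, lies furthest from 0, and no value passed after adjustment over all 22626 probe sets.

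The genes around the kinases in the pathway were taken from fixed lists, with 1 probe set per gene. No gene of these 6 lists passed in a day length comparison. Of Gq-coupled receptors, 23 were measured and 10 never exceeded 19. In the bed nucleus 15 were higher and 8 lower in short days (median 0.04), and in the preoptic area 11 and 12 (median 0.00). The largest nucleus difference among them was that of Tacr3, the receptor of neurokinin B, at -0.26, with 13 and 14 in the short-day and 14, 11 and 12 in the long-day bed nucleus, and 15, 16 and 15 in the short-day and 18, 15 and 14 in the long-day preoptic area.

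Of 14 upstream genes, which encode Gq-class subunits, phospholipases C, inositol trisphosphate receptors and Pdpk1, a kinase that phosphorylates protein kinase C, 4 were higher and 10 lower in short days in the bed nucleus (median -0.14), and 7 and 7 in the preoptic area. Between the nuclei 10 were higher in the bed nucleus and 4 lower, with a median of 0.05. Plcb1, the phospholipase C isoform that Gq activates in forebrain neurons, was at 0.45. It read 70 and 78 in the short-day and 95, 88 and 69 in the long-day bed nucleus, and 54, 49 and 67 in the short-day and 54, 51 and 72 in the long-day preoptic area, so the nuclei overlapped. Plcd1 was at 0.44. The 4 diacylglycerol kinases, which remove the lipid that switches the kinases on, were all higher in the bed nucleus (median 0.06). Dgke and Dgkq were at only 0.02, and in long days 2 of the 4 were lower. Dgkz, the zeta form, was at 0.28, with 208 and 200 in the short-day and 270, 289 and 243 in the long-day bed nucleus, and 174, 194 and 164 in the short-day and 210, 220 and 194 in the long-day preoptic area. Its day length differences of -0.39 and -0.23 did not pass (adjusted p = 0.252 and 1, limma).

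Scaffold proteins had 6 of 14 genes higher in the bed nucleus and 8 lower (median -0.02). Akap12, an anchoring protein that binds protein kinases A and C, was at -0.38. Substrates had 7 higher and 10 lower (median -0.05). Among them Elavl4, a neuronal RNA-binding protein that protein kinase C phosphorylates, was at -0.94, and at -1.32 without the long-day bed nucleus arrays 2 and 3. It read 561 and 390 in the short-day and 404, 927 and 849 in the long-day bed nucleus, and 1152, 1176 and 1091 in the short-day and 879, 1165 and 1073 in the long-day preoptic area. Gap43, a substrate of axon terminals, was at -0.48. Gap43 read 797 and 860 in the short-day and 1024, 1009 and 1141 in the long-day bed nucleus, and 1497, 1376 and 1154 in the short-day and 1172, 1393 and 1279 in the long-day preoptic area, without overlap of the nuclei. Nrgn, encoding the postsynaptic substrate neurogranin, was at 0.34, with 68 and 75 in the short-day and 57, 48 and 66 in the long-day bed nucleus, and 44, 50 and 50 in the short-day and 58, 44 and 58 in the long-day preoptic area.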

How the data were processed

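Total RNA of 11 micropunch samples was labelled with biotin and hybridised to 1-colour arrays, with sample groups and numbers taken from the sample descriptions. The authors deposited a linear intensity for each probe set, made with RMA version 3.4 per the submitters' processing notes, and no other step is named there. The intensities are whole numbers with a median of 19 on every array, so they had been normalized and rounded. The number of arrays limits the precision, and no detection call was used. Of 22690 probe sets, 64 controls were set aside. Gene symbols came from the platform annotation, where 20380 tested probe sets have 1 symbol, 691 several and 1555 none, and some may be old.

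Log2 values, with no pseudocount, were fitted in limma 3.58.1 (lmFit, eBayes; R 4.3.3) as 4 group means over 11 arrays (7 residual and 12.9 prior degrees of freedom). Tests were two-sided, with Benjamini-Hochberg adjustment over 22626 probe sets and a threshold of 0.05. The members, lists and tests were chosen with earlier results of these data known. The naming rule was all members, the 4 genes most like each member's brightest probe set among named probe sets at or above the median level, and at most 4 genes per list by the size of the nucleus difference. Further listed genes were named outside this rule. They had or lacked the pattern of the long-day bed nucleus arrays 2 and 3, weighed on a sum, or limited a count. The brightest probe set stood for a gene in lists. On simulated arrays with 200 changed probe sets among 22626, all above the median level, the fit called 98.7% of changes of 1 on the log2 scale in the bed nucleus and 99.8% in the preoptic area, and 7.38% and 21.8% of changes of 0.5. For the difference between the nuclei these shares were 76.0% and 0.225%, and 35.7% of the calls at changes of 0.5 were false. The simulated noise was independent between arrays, and the changed probe sets were picked at random. Prkcb and Prkcd had a larger residual SD than most probe sets, at percentiles of 96.4 and 99 (Prkcb) and 98.8 (Prkcd). The simulated shares therefore do not carry over to these members. The alternatives were quantile normalization, a pseudocount of 16, dim probe sets left out, a trended and robust prior, array weights, the arrays of a nucleus alone, 1 probe set per gene, a threshold of 0.10, each array left out and a block on the sample number. Leaving out the long-day bed nucleus arrays 2 and 3 together was added after seeing the data, as was leaving out these arrays or the short-day preoptic array 6 for listed genes and marker correlations. Without arrays 2 and 3, array 1 is the only long-day bed nucleus array left. That array, at 25.4, lay furthest out of the bed nucleus arrays on the first principal component.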

Additional observations from a re-analysis of the deposited data

How the results depend on the processing

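In the alternatives run, 0 member probe sets passed in each day length comparison, except that leaving out single arrays gave 0 to 1 in the bed nucleus, where Prkcd passed without the long-day array 1. Over these alternatives, the bed nucleus difference of Prkcd ran from -1.18 to -0.32, and its lowest adjusted p (limma) was 0.0361. The value of -0.32 rests on array 1 as the only long-day array. With a pseudocount of 16 the nucleus difference of Prkcd was 0.67 against 1.02, since a pseudocount shrinks differences at low intensities. The number of probe sets higher in the bed nucleus was 6 to 8 of 10 against 6 of 10, 6 of 8 with dim probe sets left out and 4 of 6 with 1 probe set per gene. It was 8 of 10 with the replicate block and without the long-day bed nucleus arrays 2 and 3. The labels do not say whether a sample number shared by the nuclei marks the same animal. Same-numbered deviations from the group means correlated at -0.03 to 0.07, and only number 4 correlated best with its own number. With groups of 2 or 3 arrays from different tissues, these values cannot settle whether the samples were paired. With the replicate block the count of calls was 0 in all 4 day length comparisons, and the Prkcd interaction was -0.52 (adjusted p = 0.495, limma). The block was a random term, except for the interaction and the nucleus difference, where it was a fixed term. There the short-day preoptic array 6, the only array with its number, does not enter the estimates. These values, -0.52 and 8 of 10, are therefore the same as those without that array.

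The nucleus differences of 4 probe sets, of Prkca (1427562_a_at), Prkce (1452878_at), Prkcq and Prkcz (1449692_at), changed sign 14 times, with values of at most 0.11 in size. Among the 40 day length values changes of sign occurred 31 times, all for values under 0.25 in size that did not pass, and their cause was not tested. In the bed nucleus Prkcb (1423478_at) was at 0.06 after quantile normalization. Without long-day bed nucleus arrays 2 and 3, Prkcb (1460419_a_at) was at -0.14 and Prkce (1449956_at) at 0.14 there, and the interactions were -0.01 for Prkca (1450945_at), 0.03 for Prkce (1449956_at) and -0.08 for Prkcq. With array weights Prkca (1450945_at) was at -0.03 in the preoptic area. Leaving out single arrays gave, in the bed nucleus, -0.04 to 0.43 for Prkca (1427562_a_at), -0.17 to 0.12 and -0.06 to 0.27 for Prkcb (1423478_at, 1460419_a_at) and -0.16 to 0.04 for Prkce (1449956_at). In the preoptic area it gave -0.08 to 0.11 for Prkca (1450945_at), -0.04 to 0.26 for Prkce (1449956_at), -0.04 to 0.19 for Prkcq and -0.28 to 0.08 for Prkcz (1449692_at). In the mean of both nuclei it gave -0.02 to 0.21 and -0.02 to 0.08 for Prkca (1427562_a_at, 1450945_at) and -0.05 to 0.10 for Prkce (1449956_at). For the interaction it gave -0.03 to 0.44 and -0.06 to 0.12 for Prkca (1427562_a_at, 1450945_at) and -0.05 to 0.18 for Prkcq. Prkca lies under the array median on every array, where whole-number rounding limits what can be seen.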
